A study of Mus musculus with 32 samples.

Results

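The genes described here are 10 genes that respond to ERK signalling, taken by name from 31053 genes counted in each library: Dusp4, Dusp6, Spry1, Spry2, Spry4, Spred1, Spred2, Etv4, Etv5 and Egr1. They were listed as genes that could rise when the MEK inhibitor of 2i medium is removed. The rule names them by function and uses no measured value, but the list was drawn up with earlier results of these data known. All 10 were found by symbol, and all 10 passed the filter of at least 1 CPM (counts scaled to a common library size) in at least 4 libraries, which left 15280 genes to be tested.

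ERK is the last kinase of the cascade that runs from fibroblast growth factor (FGF) receptors through RAS, RAF and MEK, and in mouse embryonic stem cells (ESCs) FGF4 and ERK drive the exit from naive pluripotency. 2i medium holds ESCs in the naive state with an inhibitor of MEK and an inhibitor of GSK3. Active ERK switches on genes that restrain the pathway itself, such as the phosphatases DUSP4 and DUSP6 and the Sprouty and SPRED proteins, together with transcription factors such as ETV4, ETV5 and EGR1.

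The RNA came from C1, a single mouse ESC line. Its own β-catenin is knocked out, and it holds a transgene in which a destabilizing domain and mCherry are joined to constitutively active β-catenin S33Y. Doxycycline (dox) starts transcription of the fusion from a TRE3G promoter, through an rtTA driven by EF1a in all cells of the line, and trimethoprim (TMP) stabilizes the protein. RNA was sequenced from transcript 3′ ends (QuantSeq) in 32 libraries, 4 biological replicates in each of 8 groups. According to the methods of the study the cells had been kept in 2i with LIF, whereas the sample labels describe serum with LIF, and the methods are followed here.

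Day 0 comprised C1, C1M and C1H cells, taken from 2i with LIF after a pretreatment of 48 h and cell sorting. C1 cells had 10 μM TMP and no dox and were sorted for live cells. C1M and C1H cells had 100 ng/mL dox and 10 μM TMP and were sorted as the middle and the high mCherry fraction, so they are fractions of the induced line and not separate lines. The other 5 groups were collected after 4 days in NDiff227 medium on gelatin, without 2i and LIF. C1T cells came from the C1 population and had TMP only, C1MV and C1HV cells came from the middle and the high fraction and had no inducer, and C1MDT and C1HDT cells kept dox and TMP. From day 0 to day 4 the MEK inhibitor, the GSK3 inhibitor and LIF were removed together, so their effects on a gene cannot be told apart.

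The genic counts of a library ran from 1366951 to 3648787, with a median of 2402468. Values are CPM scaled with edgeR's TMM factors, and 3 counts in a library came to between 0.822 and 2.19 CPM before that scaling. Libraries of a group correlated with an r between 0.97 and 0.98 across tested genes. The share of uniquely aligned reads that fell on no gene was 19.5% to 23.1% at day 0 and 10.1% to 15.6% at day 4, so it moved with every comparison of the days. Within a day it was 22.1% to 23.1% in C1H, above the 19.5% to 20.9% of C1, while C1M at 19.7% to 21.2% overlapped C1. At day 4 it was 10.1% to 11.5% in the groups that kept inducers, below the 14.4% to 14.8% of C1T and the 12.5% to 15.6% of the groups after withdrawal, so it also moved with the comparisons between these groups. The share of all reads that aligned but not uniquely moved as well. It was 53.1% to 54.1% in C1M, above the 49.4% to 51.3% of C1. In C1H it was 50.7% to 51.3%, and over the day 4 libraries it was 52.7% to 56.4%. The part of either share in any of these comparisons was not tested. The naive markers checked the label of the day 0 cells: their summed level was between 7600 and 9005 CPM in the 12 libraries of day 0 and between 1307 and 3400 CPM in the 20 libraries of day 4, and of the 11 markers Dppa3 was near 0 in all groups, with at most 7 counts in any library. Of the 6 fibroblast markers, which feeder cells would bring, Postn was at 0 in 7 groups and had 1 count in 1 library of C1MV. Their summed level was between 7.40 and 22.4 CPM in all 32 libraries.

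Promoters of 6 of the 10 genes were listed in the RefSeq table for GRCm38.p6. Those of Dusp6 and Spry2 are shown because both genes rose at day 4 while they differed at day 0, where Spry2 was higher in the induced fractions and Dusp6 did not pass the test. Each sequence is the 250 bases before the transcription start, read 5′ to 3′ on the strand of the gene, at chr10:99262981-99263230 on the plus strand for Dusp6 and at chr14:105896820-105897069 on the minus strand for Spry2. Capitals mark matches on either strand to CGGAA, the core letters bound by ETS factors such as ETV4 and ETV5, or to CTTTGT, letters that TCF/LEF and SOX factors can bind. No marked matches overlapped.
Dusp6: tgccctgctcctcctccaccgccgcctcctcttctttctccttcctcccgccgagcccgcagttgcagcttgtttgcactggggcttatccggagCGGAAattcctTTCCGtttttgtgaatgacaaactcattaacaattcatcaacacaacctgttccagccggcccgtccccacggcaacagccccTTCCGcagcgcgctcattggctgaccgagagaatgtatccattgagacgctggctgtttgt
Spry2: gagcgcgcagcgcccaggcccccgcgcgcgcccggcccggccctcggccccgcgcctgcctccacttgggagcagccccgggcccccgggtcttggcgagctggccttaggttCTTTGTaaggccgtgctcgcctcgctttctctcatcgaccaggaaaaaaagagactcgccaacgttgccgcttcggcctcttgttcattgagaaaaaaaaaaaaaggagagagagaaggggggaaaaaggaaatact

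The Dusp6 stretch held 3 matches to CGGAA and the Spry2 stretch held 0. Spred1 had 1 match and Spred2 had 2, while Spry1 and both listed starts of Etv5 had 0. CGGAA on either strand was found in 25.2% of 32851 mouse promoter stretches of this length. CTTTGT was found once each for Spry2 and Spred2, and in 16.5% of all stretches. The related letters CTTTGA were in none of the 7 stretches of these genes and in 13.8% of all stretches. These matches are letters in a window and no binding was measured.

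The first comparison asked how the 10 genes differed between naive cells and cells 4 days out of 2i. In control cells without the fusion (C1T vs C1), 6 genes rose and 0 fell: Dusp4, Dusp6, Spry2, Spry4, Spred1 and Etv4. Among all tested genes 24.4% were higher and 24.9% were lower by the same test, edgeR's quasi-likelihood test with a Benjamini-Hochberg adjusted p (FDR) under 0.05. The median log2 fold change was 1.97 over the 10 genes and 0.01 over all 15280. The same 6 genes rose in each of the 4 comparisons of induced cells with their own day 0 fraction, and there Etv5 rose with them. Of the 10 genes Spry1 fell in C1MDT vs C1M, and 0 fell in the other 3. Of all tested genes 22.0% were higher and 23.9% lower in C1MV vs C1M, 24.5% and 27.9% in C1MDT vs C1M, 22.0% and 25.1% in C1HV vs C1H and 26.3% and 29.4% in C1HDT vs C1H. The medians over the 10 genes were 0.96, 1.26, 0.94 and 1.24 in these comparisons, against -0.04, -0.06, -0.06 and -0.06 over all genes, and the medians stayed as given with Spry4 at the lower limit of its counting interval. Spry1, Spred2 and Egr1 rose in 0 of the 5 comparisons. In bulk RNA, fewer cells with a transcript and less transcript per cell cannot be told apart, and this holds for all values here.

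**Figure D1:**
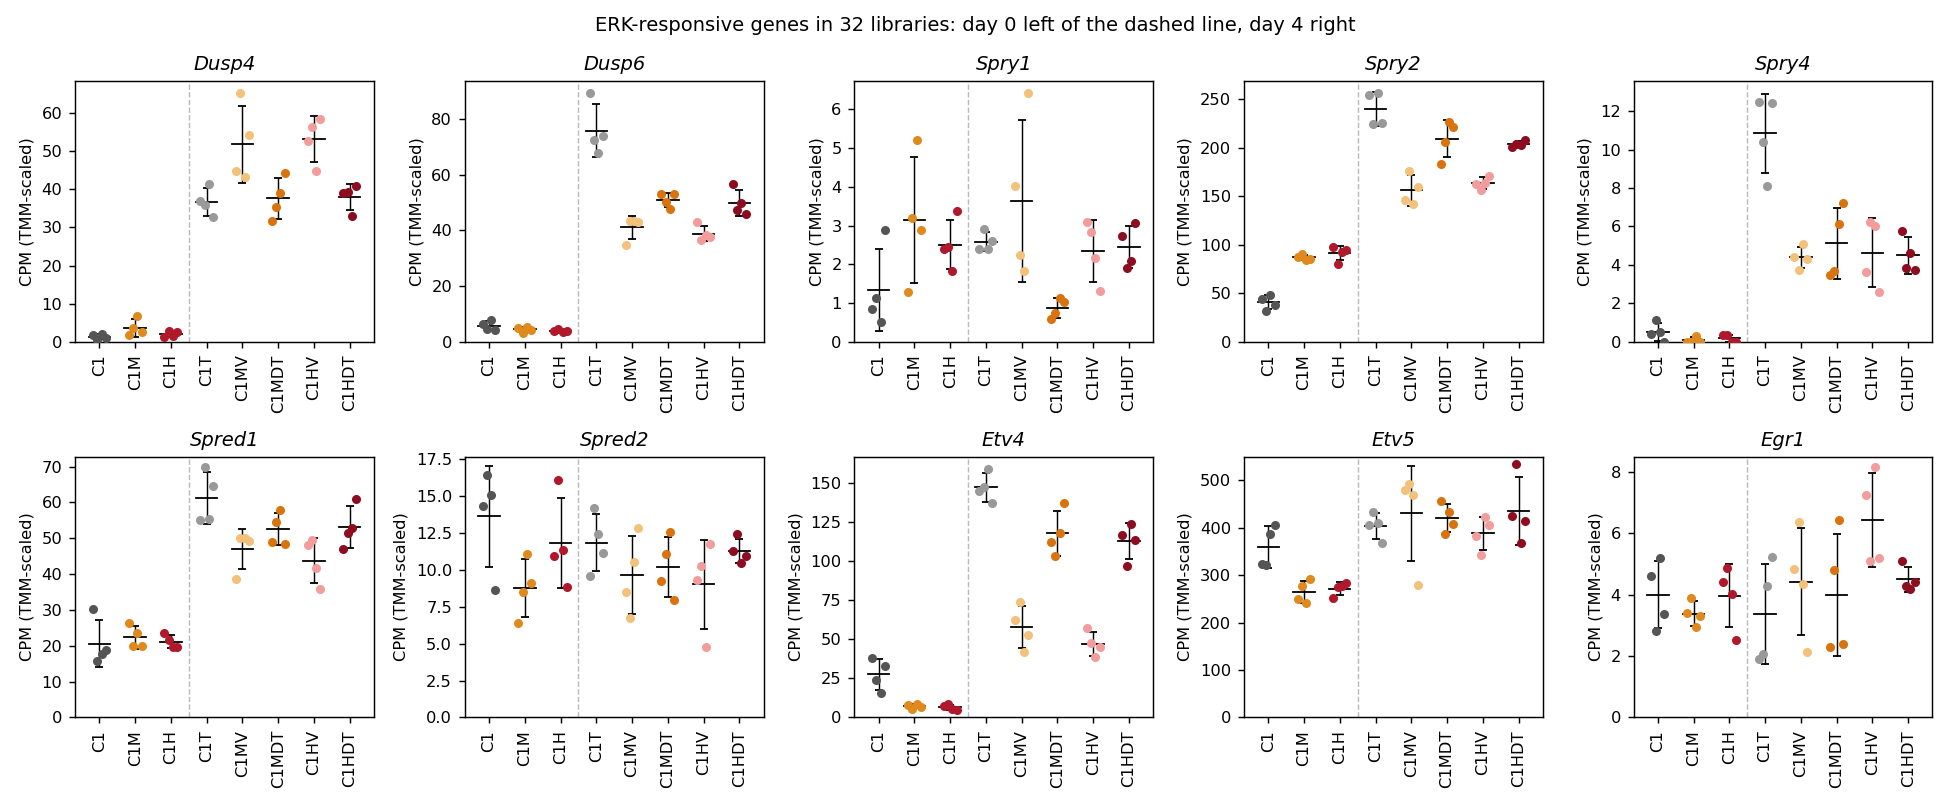
Level of each of the 10 ERK-responsive genes in CPM (TMM-scaled, linear axis from 0, 1 panel per gene) in the 4 libraries of each group, with the mean as a bar and the SD as whiskers. For Dusp4, Dusp6, Spry2, Spry4, Spred1 and Etv4 each of the 20 day 4 libraries lies above each of the 12 day 0 libraries, while Spry1, Spred2, Etv5 and Egr1 overlap between the days. How many of all tested genes lie apart in this way was not counted.

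Dusp4 (ENSMUSG00000031530, GRCm38 chr8:34807297-34819894, plus strand) encodes a nuclear phosphatase that removes phosphate from ERK. Its levels in C1 were 1.68, 0.566, 2.08 and 0.959 CPM, and in C1T they were 36.95, 35.8, 41.5 and 32.6 CPM. The groups did not overlap, and the C1 libraries held only 1 to 4 counts. The log2 fold change was 4.72 (SE 0.46, FDR 5.0e-32 by edgeR's quasi-likelihood test, 26.4-fold, n = 4 per group). In the induced cells it lay between 3.30 in C1MDT vs C1M and 4.67 in C1HV vs C1H.

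Dusp6 (ENSMUSG00000019960, chr10:99263231-99267489, plus strand) encodes the cytoplasmic ERK phosphatase, a classical readout of the pathway. In C1 it was at 6.30, 4.53, 7.79 and 4.32 CPM, and in C1T at 89.3, 72.5, 67.7 and 73.8 CPM. All 4 C1T libraries were far above all 4 C1 libraries, with a log2 fold change of 3.71 (SE 0.23, FDR 9.35e-42 by edgeR, 13.1-fold). The change was between 3.20 and 3.65 in the 4 comparisons of induced cells. At day 0 the highest of 12 libraries was at 7.79 CPM and at day 4 the lowest of 20 was at 34.7 CPM.

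Of the 3 Sprouty genes, which encode inhibitors that act between the receptor and RAF, Spry2 and Spry4 rose. Spry2 (ENSMUSG00000022114, chr14:105891947-105896819, minus strand) was at 44.1, 31.7, 48.3 and 38.4 CPM in C1 and at 254, 225, 256 and 225 CPM in C1T. The ranges lay well apart, and the log2 fold change was 2.56 (SE 0.11, FDR 5.4e-53 by edgeR, 5.88-fold). In the induced cells Spry2 rose by less, with log2 fold changes of 0.84 in C1MV vs C1M, 1.27 in C1MDT vs C1M, 0.84 in C1HV vs C1H and 1.16 in C1HDT vs C1H. The difference of each of these from the change in C1T vs C1 passed the test of the interaction and was between -1.28 and -1.72 (log2, largest FDR 1.45e-14 by edgeR, where 22.5%, 24.4%, 21.9% and 25.2% of all genes passed in either direction for C1MV, C1MDT, C1HV and C1HDT). All 4 interactions share the C1 and C1T libraries.

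Spry4 (ENSMUSG00000024427) had 7 counts in total over the 12 day 0 libraries, none with more than 2, and 270 counts over the 20 day 4 libraries. It was at 12.5, 10.4, 8.10 and 12.4 CPM in C1T and at 0.420, 1.13, 0.519 and 0 CPM in C1. All 20 day 4 libraries were above all 12 of day 0. Because the day 0 counts were so few, the ratio of summed counts is given with its exact 95% counting interval, which covers counting error only: 21.9 (8.24 to 82.1) for C1T vs C1, and in the induced cells from 24.8 (6.49 to 210.5) for C1HDT vs C1H to 57.6 (9.94 to 2312) for C1MDT vs C1M. Spry4 passed the edgeR test in all 5 comparisons, with a largest FDR of 1.6e-08.

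Spry1 (ENSMUSG00000037211, chr3:37639947-37644598, plus strand) was counted with 1 to 16 reads per library. It was at 1.34 ± 1.05 CPM in C1 and 2.58 ± 0.248 CPM in C1T (SD, n = 4), and the log2 fold change of 0.91 did not pass the test (95% interval -0.30 to 2.12, FDR 0.20 by edgeR). It fell by 1.77 on the log2 scale in C1MDT vs C1M (SE 0.60, FDR 0.0038), with 1, 2, 4 and 3 counts in C1MDT against 3, 9, 16 and 7 in C1M. The C1MDT libraries lay below all C1M libraries in CPM, and without replicate 3 of C1M the FDR was 0.0565. The annotated gene Gm42922 overlaps Spry1 on the opposite strand and was not among the counted genes, and whether the counting used the strand is not given in the sources used here.

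The SPRED proteins bind RAS and neurofibromin and hold back RAF activation. Spred1 (ENSMUSG00000027351, chr2:117121374-117182279, plus strand) was at 30.2, 15.9, 17.6 and 18.7 CPM in C1 and at 55.2, 70.0, 55.3 and 64.6 CPM in C1T. No C1T library came near the highest C1 library. The log2 fold change was 1.54 (SE 0.16, FDR 2.1e-17 by edgeR, 2.91-fold), and it was between 1.05 and 1.32 in the 4 comparisons of induced cells. Its close relative Spred2 (ENSMUSG00000045671, chr11:19924375-20024026, plus strand) was at 13.6 ± 3.43 CPM in C1 and 11.8 ± 1.94 CPM in C1T. The Spred2 log2 fold change was -0.18 (95% interval -0.67 to 0.31, FDR 0.58 by edgeR), and over the 5 comparisons it ran from -0.45 to 0.22 with a lowest FDR of 0.153.

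ETV4 and ETV5 are ETS transcription factors of the PEA3 group and act downstream of FGF receptors. Etv4 (ENSMUSG00000017724, chr11:101769742-101785371, minus strand) was at 37.8, 23.8, 15.6 and 33.1 CPM in C1 and at 145, 148, 159 and 137 CPM in C1T. The C1T libraries were close together and far above the scattered C1 libraries, with a log2 fold change of 2.39 (SE 0.16, FDR 4.8e-22 by edgeR, 5.24-fold). In the cells that kept their inducers Etv4 rose by more, with log2 fold changes of 4.00 in C1MDT vs C1M and 4.07 in C1HDT vs C1H. These exceeded the change in C1T vs C1 by 1.61 (SE 0.27, FDR 1.4e-06) and 1.68 (SE 0.28, FDR 6.5e-07) in the interaction test of edgeR. These cells started from a lower level, at a mean of 7.31 CPM in C1M and 6.60 CPM in C1H against 27.6 CPM in C1, and at day 4 their means of 117.8 and 112.9 CPM were below the 147.3 CPM of C1T. After withdrawal the Etv4 changes were 2.98 and 2.80, and their interactions did not pass the test (FDR 0.11 and 0.32).

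Etv5 (ENSMUSG00000013089, chr16:22381309-22439719, minus strand) was already well detected in 2i. It was at 323, 320, 388 and 406 CPM in C1 and at 405, 433, 410 and 368 CPM in C1T. These ranges overlapped, and the log2 fold change of 0.17 did not pass the test in the fit of all groups (95% interval -0.08 to 0.43, FDR 0.29), although it did when only C1 and C1T were fitted (FDR 0.036 by edgeR). In induced cells it rose by 0.52 to 0.72 (log2). Beside these rises, Etv5 was lower in C1M and C1H than in C1 at day 0.

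Egr1 (ENSMUSG00000038418) encodes a zinc finger factor whose gene is switched on within minutes of ERK activation. It was at 4.62, 2.83, 5.19 and 3.36 CPM in C1 and at 1.92, 2.08, 4.29 and 5.22 CPM in C1T. The groups overlapped over most of their range, and the log2 fold change was -0.31 (95% interval -1.17 to 0.54, FDR 0.57 by edgeR). These libraries had 4 to 11 counts each, and the interval leaves a lower or a higher level in C1T possible. Over the 4 comparisons of induced cells the log2 fold change ran from 0.17 to 0.70 with a lowest FDR of 0.0986.

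**Figure D2:**
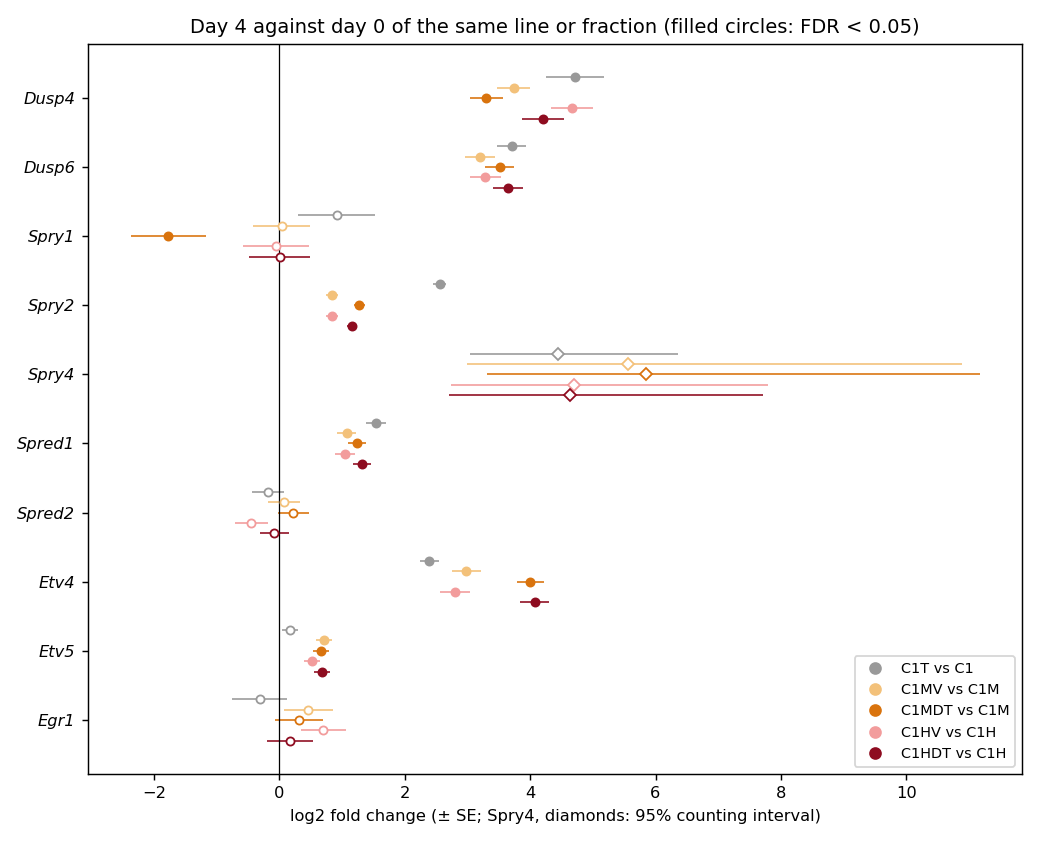
Log2 fold change of each gene at day 4 against day 0 in the 5 comparisons (circles with SE, filled where the edgeR FDR is under 0.05). Spry4 is drawn as diamonds at the log2 ratio of summed counts with its 95% counting interval, since day 0 held at most 2 counts per library. Dusp4, Dusp6, Spry2, Spry4, Spred1 and Etv4 lie to the right of 0 in all 5 comparisons, Spry2 rises most in C1T vs C1, and Etv4 rises most where dox and TMP were kept.

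Over the 32 libraries the log2 CPM of the 6 genes that rose in all 5 comparisons correlated with Pearson r between 0.71 and 0.96 over 15 pairs (median 0.89). Once each group's mean was removed, r lay between -0.20 and 0.43 (median 0.12). These correlations describe libraries that share their groups, and the first set mainly holds the step between the days.

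Other genes of the pathway were taken from lists of FGF and ERK genes. Of 20 tested further feedback and response genes, 9 rose and 4 fell in C1T vs C1, with a median log2 fold change of 0.36, or 0.25 where genes with few counts entered by the limit of their counting interval nearest to no change, or by their bound. Ccnd1, which encodes cyclin D1, rose from 30.7 ± 5.07 to 222.1 ± 38.8 CPM (log2 fold change 2.87), and Rgs2, a regulator of G protein signalling, rose from 1.55 ± 1.00 to 7.98 ± 3.41 CPM (2.32). Dusp2 had 0 counts in C1 and 14 in C1T in all, which makes it at least 1.16-fold higher against a floor of 3 counts per library. In the same list the phosphatase gene Dusp14 fell by 3.36 on the log2 scale, from 83.8 ± 10.3 to 8.04 ± 1.40 CPM, the ETS gene Ets2 fell by 2.41 and Dusp16 fell by 1.44. Phosphatase and ETS genes of the feedback class thus moved in both directions. In the induced cells, each against its own fraction at day 0, 5 rose and 4 fell in C1MV (median 0.15, or 0.17 with low-count genes at that limit). In C1MDT 6 rose and 5 fell (0.05 either way), in C1HV 6 and 5 (-0.43, or -0.32) and in C1HDT 6 and 6 (-0.35 either way). Of all tested genes 22.0% to 26.3% were higher and 23.9% to 29.4% lower in these 4 comparisons. The difference of this list from C1T vs C1 was not tested.

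Of 15 tested FGF ligand, receptor and adaptor genes, 3 rose and 5 fell in C1T vs C1 (median log2 fold change -0.11, or -0.02 with such genes at that limit). Genes with at most 3 counts in each library of both groups, here Fgfr4 and Fgf8, were left out of the second median in each list. Fgf5, a marker of the post-implantation epiblast, had 2 counts in C1 and 125 in C1T in all (ratio 62.9, 95% counting interval 17.0 to 524.7), Fgfr2 rose by 2.38 and the adaptor Shc1 by 0.60 (log2). Fgf4, the FGF that ESCs make themselves, fell by 1.46, from 365.3 ± 35.8 to 131.9 ± 15.8 CPM, and the log2 fold changes of the adaptor genes Frs2 and Sos2 were -0.71 and -0.63. Of 28 genes of the RAS, RAF, MEK and ERK cascade 11 rose and 8 fell (median -0.21, or -0.19 with 1 low-count gene left out). Mapk3, which encodes ERK1, rose by 1.60, Srf by 1.2025 and Braf by 1.07, while Rasa3, Ksr1 and Rps6ka1 fell with log2 fold changes of -1.37, -1.33 and -0.87.

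In the induced cells more of the FGF genes rose than fell from day 0 to day 4, a difference from C1T vs C1 that was not tested for the list. Of all tested genes 22.0% to 26.3% were higher and 23.9% to 29.4% lower in these comparisons. In C1MV vs C1M 8 rose and 3 fell (median log2 fold change 0.43, or 0.31 with low-count genes at that limit), and in C1MDT vs C1M 7 rose and 3 fell (0.63, or 0.0045). In C1HV vs C1H 7 rose and 4 fell (0.28 either way), and in C1HDT vs C1H 6 rose and 5 fell (0.18, or 0.13). Of the cascade genes 10, 12, 11 and 13 rose and 6, 5, 4 and 5 fell in C1MV, C1MDT, C1HV and C1HDT.

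Of 20 further immediate early genes, 6 rose and 11 fell in C1T vs C1 (median -0.67 on either treatment of low counts). Myc had 1 count in C1 and 29 in C1T (ratio 29.2, 95% counting interval 4.84 to 1191), Fosl1 had 0 and 8 counts with no library of C1T over 4, and Ier5 rose by 1.55. Fos fell by 2.31, from 4.35 ± 3.03 to 0.910 ± 0.866 CPM, and Junb and Zfp36 fell with log2 fold changes of -1.69 and -1.37. The day 0 cells had been through sorting, and of 11 tested genes known to respond to dissociation and heat shock 5 rose and 2 fell (median 0.43). Hsph1 rose by 1.12, Gadd45a by 1.10 and Hspe1 by 0.79, while Gadd45b and Hsp90aa1 fell with log2 fold changes of -5.37 and -0.99, and the summed level of the list was 10470 to 11460 CPM at day 0 and 6317 to 8322 CPM at day 4. In C1MV, C1MDT, C1HV and C1HDT, each against its day 0 fraction, 3, 5, 3 and 5 of the immediate early genes rose and 7, 10, 9 and 10 fell, and 4, 2, 5 and 3 of the dissociation genes rose and 4, 3, 5 and 4 fell. The part of the dissociation genes in the levels of Egr1 and the other immediate early genes was not tested.

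Markers of cell state moved from day 0 to day 4 together with the ERK-responsive genes. Of 11 naive markers 0 rose and 9 fell in C1T vs C1, with a median log2 fold change of -2.62, and the log2 fold changes of Klf4, Tfcp2l1 and Tbx3 were -5.00, -4.71 and -4.05. Of 7 early epiblast markers 6 rose and 1 fell (median 4.23), with Pou3f1 higher by 5.88 and Sox3 by 4.49, while Foxd3 fell by 0.89. Of 6 general pluripotency genes 4 rose and 1 fell (median 0.55), with Lin28a higher by 5.22, Utf1 by 3.21 and Zfp281 by 0.82 and Sox2 at -0.96. Of 6 tested neural genes 4 rose and 0 fell, among them Tubb3 by 2.62 and Pax6, whose ratio of summed counts was 39.8 (95% counting interval 16.8 to 124.0). Of 5 streak and mesoderm genes 1 rose and 2 fell, of 8 endoderm genes 1 rose and 2 fell and of 4 fibroblast genes 1 rose and 1 fell.

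The endoderm markers rose in the induced cells: 7 of the 8 passed the test in each of the 4 comparisons with the own day 0 fraction, and 1 fell, in C1HV. Their summed level was 39.4 to 57.5 CPM in C1M and C1H and 395.9 to 884.2 CPM in the 4 induced groups at day 4, against 26.7 to 33.3 CPM in C1 and 16.55 to 25.97 CPM in C1T. In each of these 4 comparisons 10 naive markers fell and 0 rose, and 6 early epiblast markers rose and 1 fell. Of the general pluripotency genes 4, 4, 4 and 5 rose in C1MV, C1MDT, C1HV and C1HDT and 1 fell in each, and of the neural genes 3, 3, 3 and 5 rose and 1, 0, 1 and 0 fell. Of the streak and mesoderm genes 1 rose in each and 3, 3, 2 and 3 fell, and of the fibroblast genes 1, 0, 0 and 0 rose and 0, 2, 0 and 1 fell. The part of these state changes in the levels of the ERK-responsive genes was not tested.

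**Figure D3:**
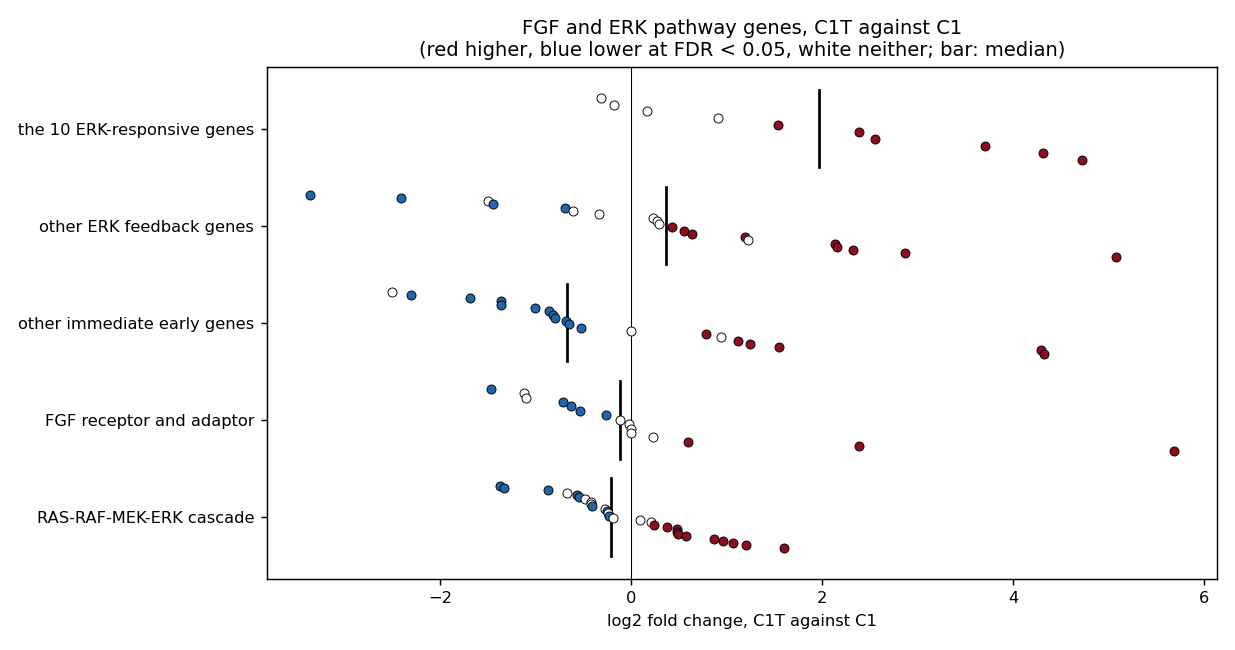
Log2 fold change of C1T against C1 for each tested gene of 5 gene lists, with the list's median as a bar and genes past an edgeR FDR of 0.05 in red (higher) or blue (lower). Genes with few counts are drawn at their fitted value. The median is 1.97 for the 10 ERK-responsive genes, 0.36 for other ERK feedback genes and -0.67 for other immediate early genes.

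The second comparison asked how the induced fractions differed from C1 while cells were held in 2i, where MEK was inhibited. C1M and C1H had dox and were sorted on mCherry, whereas C1 had no dox and was sorted for live cells. No group had dox without the fusion, so the effects of fusion, dox and sorting cannot be told apart. In C1M vs C1, 2 of the 10 genes rose (Dusp4 and Spry2) and 2 fell (Etv4 and Etv5), against 14.3% and 12.0% of all tested genes. In C1H vs C1, 1 rose (Spry2) and 2 fell (Etv4 and Etv5), against 13.8% and 12.1%. The medians over the 10 genes were -0.32 and -0.10, against 0.06 and 0.04 over all genes. Both comparisons share the C1 libraries.

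Etv4 had the largest change that passed the test at day 0. It was at 8.07, 5.68, 8.48 and 7.02 CPM in C1M and at 7.16, 8.72, 5.50 and 5.04 CPM in C1H, while the lowest of the 4 C1 libraries was at 15.6 CPM. No library of either induced group reached the C1 range, and Etv4 fell by 1.93 in C1M (SE 0.24, FDR 4.2e-10) and by 2.06 in C1H (SE 0.25, FDR 7.8e-11) on the log2 scale in edgeR. Etv5 fell by 0.44 (SE 0.13, FDR 0.013) and by 0.40 (SE 0.13, FDR 0.022), with 249, 278, 242 and 291 CPM in C1M and 252, 275, 277 and 283 CPM in C1H. All 8 were below the lowest C1 library at 320 CPM. The call in C1M was lost without replicate 4 of C1 (FDR 0.0515), and that in C1H without replicate 3 or 4 of C1 or replicate 1 of C1H (FDR up to 0.0773) and with library size as the only scaling (0.0604). The remaining PEA3 gene, Etv1, was named after its values were seen, and its log2 fold changes were -1.91 and -2.40, from 28.6 ± 7.74 CPM in C1 to 7.67 ± 1.06 in C1M and 5.43 ± 0.996 in C1H.

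Spry2 went the other way. It was at 87.0, 90.8, 84.8 and 85.4 CPM in C1M and at 97.4, 80.5, 92.7 and 94.6 CPM in C1H, all above the highest C1 library at 48.3 CPM. The log2 fold changes were 1.09 (SE 0.11, FDR 4.3e-16) and 1.16 (SE 0.11, FDR 5.5e-18) in edgeR. Dusp4 was at 1.70, 3.55, 6.85 and 2.48 CPM in C1M, and its log2 fold change of 1.47 (SE 0.51, FDR 0.0098) rested on replicate 3, without which the FDR was 0.198. In C1H Dusp4 differed from C1 by 0.56 (95% interval -0.52 to 1.65, FDR 0.47).

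Dusp6 differed from C1 by -0.38 in C1M (95% interval -0.97 to 0.21) and by -0.54 in C1H (-1.14 to 0.06), and neither passed the test. Spry4 was at or under 3 counts in every library of the 3 groups, so no fold is given. Spred1, Spred2, Spry1 and Egr1 also did not pass the test in either fraction, with log2 fold changes from -0.61 (Spred2 in C1M, FDR 0.058) to 1.23 (Spry1 in C1M, FDR 0.081). Between the high and the middle fraction (C1H vs C1M) 0 of the 10 genes passed the test in edgeR and 0 in DESeq2. DESeq2 gave an adjusted p to only 4912 of the 15280 genes here, so some of the 10 may have had none. In edgeR Dusp4 alone had an unadjusted p under 0.05. Among all genes 1.77% passed. The intervals of the C1H to C1M difference were -0.22 to 0.29 for Etv5 and -0.76 to 0.44 for Dusp6. Dusp4 was at 2.04 ± 0.726 CPM in C1H and 3.64 ± 2.27 CPM in C1M (mean and SD).

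Of the 20 tested feedback genes of the wider list, 2 rose and 4 fell in C1M vs C1 and 4 rose and 4 fell in C1H vs C1. Rgs2 rose in both (log2 fold changes 1.57 and 1.76), and Ccnd1, Ets2 and Dusp16 fell in both. Of the 15 FGF genes 2 and 3 rose and 1 and 0 fell, of the 28 cascade genes 4 and 4 rose and 3 and 4 fell, and of the 20 immediate early genes 6 and 7 rose and 2 and 3 fell. Of the dissociation genes 5 and 4 rose and 2 and 2 fell. The cell state markers moved at day 0 as well: 3 naive markers rose and 6 fell in C1M vs C1 and 1 rose and 4 fell in C1H vs C1, and 2 and 0 of the 8 endoderm markers rose and 0 fell in either. The summed endoderm level of 39.4 to 57.5 CPM in C1M and C1H nonetheless lay above the 26.7 to 33.3 CPM of C1 in all 8 libraries. Of the early epiblast markers 3 and 2 rose and 2 and 2 fell, of the general pluripotency genes 0 rose in either and 2 and 3 fell, and of the streak and mesoderm genes 0 rose in either and 2 and 1 fell. Of the neural genes 0 and 1 rose and 0 and 1 fell, and of the fibroblast genes 1 rose and 1 fell in both. The naive markers summed to 8539 to 9005 CPM in C1, 7742 to 8143 in C1M and 7600 to 8043 in C1H, and the part of these states in the levels of Etv4, Etv5 and Spry2 was not tested.

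**Figure D4:**
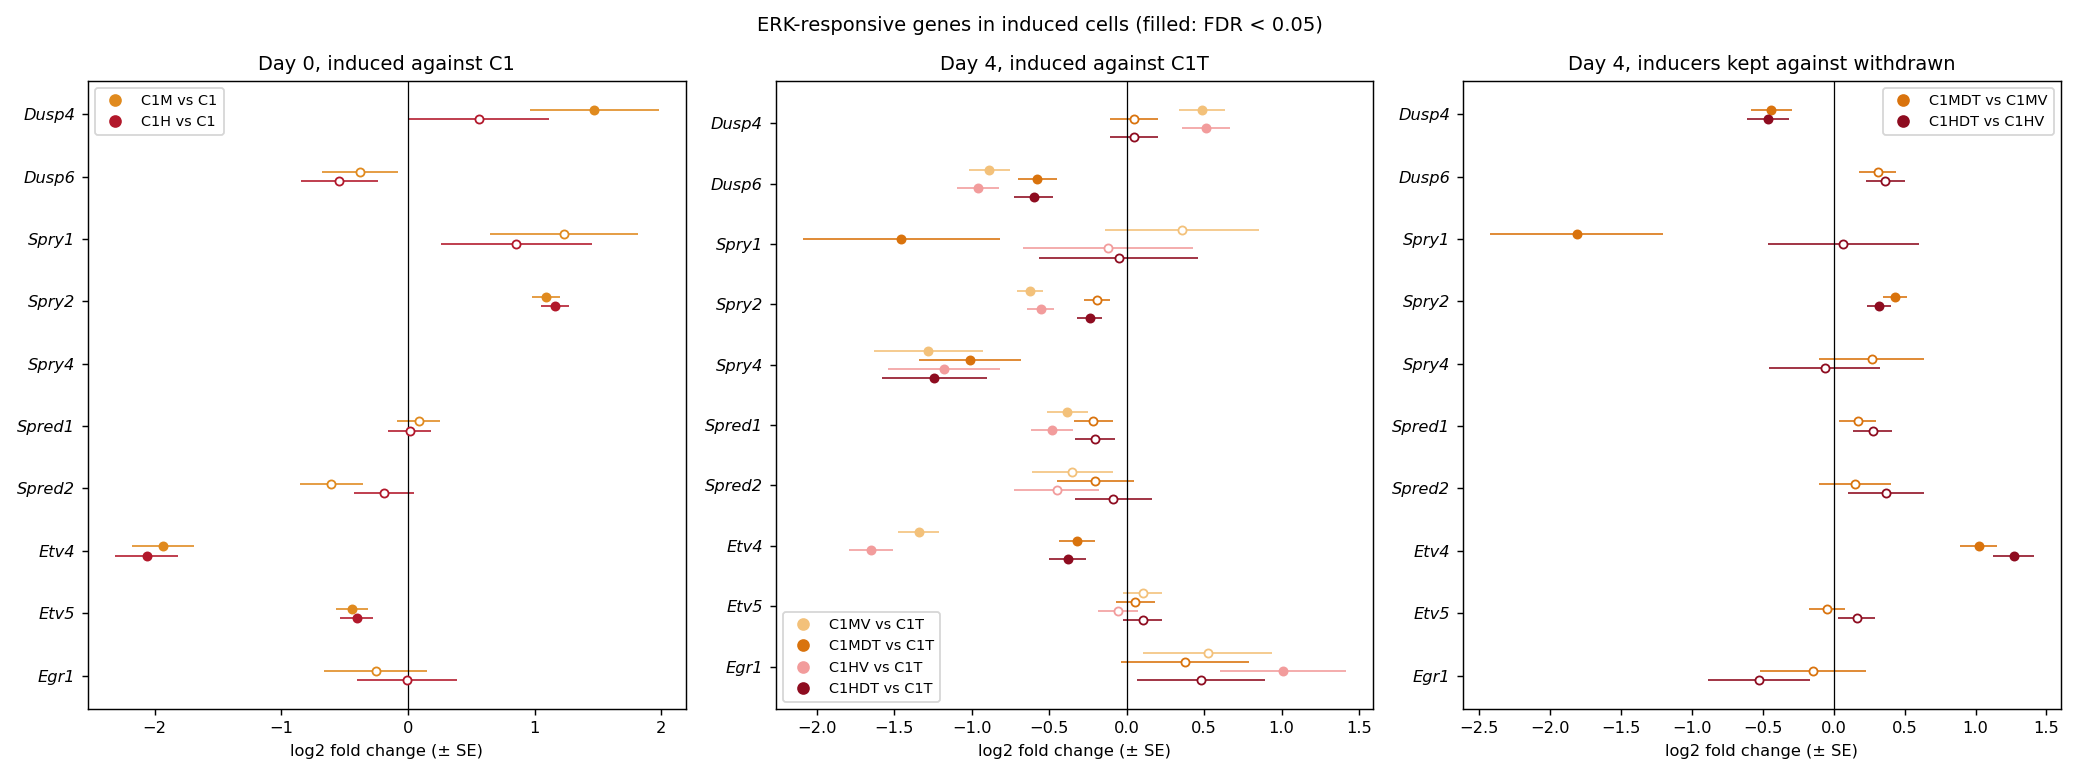
Log2 fold change with SE (filled where the edgeR FDR is under 0.05) at day 0 for the induced fractions against C1 (left), at day 4 for the 4 induced groups against C1T (middle) and at day 4 for kept against withdrawn inducers (right). Spry4 is left out at day 0, where all libraries were at or under 3 counts. Etv4 lies left of 0 in all 6 comparisons with control cells, and Spry2 lies right of 0 at day 0 and left of it at day 4. With inducers kept against withdrawn, Etv4 and Spry2 lie right of 0 and Dusp4 lies left of it. Both of these Dusp4 calls were lost when any of several single libraries was left out.

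The third comparison asked how cells that had carried the fusion differed from control cells after 4 days. C1T had TMP through these days, C1MV and C1HV had neither drug, and C1MDT and C1HDT had both. The effects of fusion, drugs and earlier sorting cannot be told apart. In C1MV vs C1T 5 of the 10 genes were lower (Dusp6, Spry2, Spry4, Spred1 and Etv4) and 1 was higher (Dusp4), against 14.9% and 15.3% of all tested genes. In C1HV vs C1T the same 5 were lower and Dusp4 and Egr1 were higher, against 14.3% and 13.7%. In C1MDT vs C1T 4 were lower (Dusp6, Spry1, Spry4 and Etv4) and 0 higher, against 16.5% and 16.9%, and in C1HDT vs C1T 4 were lower (Dusp6, Spry2, Spry4 and Etv4) and 0 higher, against 16.1% and 17.4%. The medians over the 10 genes were -0.37, -0.47, -0.21 and -0.15, against -0.01 to 0.01 over all genes. All 4 comparisons share the C1T libraries.

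Dusp6 was lower in every induced group at day 4. It was at 34.7, 43.4, 43.3 and 42.8 CPM in C1MV, 42.9, 36.4, 38.3 and 37.7 in C1HV, 53.1, 50.1, 47.8 and 53.0 in C1MDT and 56.5, 47.3, 49.9 and 46.0 in C1HDT. The lowest C1T library, at 67.7 CPM, was above all 16. After withdrawal Dusp6 fell by 0.89 in C1MV (SE 0.13, FDR 4.2e-09) and by 0.96 in C1HV (SE 0.14, FDR 9.3e-10) on the log2 scale in edgeR. With the inducers kept it fell by 0.58 in C1MDT (SE 0.12, FDR 6.1e-05) and by 0.60 in C1HDT (SE 0.12, FDR 3.1e-05).

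Etv4 was lowest after withdrawal. It was at 62.1, 74.1, 42.2 and 52.8 CPM in C1MV and at 57.4, 47.7, 38.7 and 44.9 CPM in C1HV, less than the lowest C1T library at 137 CPM by a wide gap. The log2 fold changes against C1T were -1.34 (SE 0.13, FDR 3.0e-13) and -1.65 (SE 0.14, FDR 1.4e-15) in edgeR. With inducers kept, Etv4 was at 112, 103, 118 and 138 CPM in C1MDT and at 117, 97.0, 124 and 114 CPM in C1HDT. C1MDT reached into the C1T range and C1HDT did not. The changes were -0.32 (SE 0.12, FDR 0.030) and -0.38 (SE 0.12, FDR 0.0091), and the first of them had an FDR of 0.0535 with library size as the only scaling and of up to 0.124 without replicate 1, 2 or 3 of either group.

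Spry4 was lower than in C1T in all 4 induced groups, with log2 fold changes of -1.28 and -1.18 after withdrawal (C1MV and C1HV) and of -1.01 and -1.24 with inducers (C1MDT and C1HDT; largest FDR 0.0086 by edgeR). The highest of these 16 libraries was at 7.23 CPM and the lowest C1T library at 8.10 CPM. Spry2, which was higher in the induced fractions at day 0, was lower here: it fell by 0.63 in C1MV (SE 0.08, FDR 2.5e-10) and by 0.56 in C1HV (SE 0.09, FDR 2.4e-08). Its 8 levels there ran from 142 to 176 CPM, under the 225 to 256 CPM of C1T. In C1HDT it fell by 0.24 (SE 0.08, FDR 0.016), and the FDR was up to 0.0533 without replicate 1 or 3 of C1T. In C1MDT the difference was -0.19 (SE 0.08, FDR 0.059).

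Spred1 fell by 0.38 in C1MV (SE 0.13, FDR 0.018, and up to 0.132 without replicate 2 or 4 of C1T or replicate 1 of C1MV) and by 0.48 in C1HV (SE 0.14, FDR 0.0035). It did not pass the test in C1MDT or C1HDT, where both log2 fold changes were -0.21 (FDR 0.20 and 0.22). Dusp4 moved the other way in both groups after withdrawal. It was at 44.8, 65.2, 43.3 and 54.2 CPM in C1MV and at 52.7, 56.2, 44.7 and 58.6 CPM in C1HV, above the highest C1T library at 41.5 CPM in all 8. It rose by 0.49 (SE 0.15, FDR 0.0070, and 0.102 without replicate 2 of C1MV) and by 0.51 (SE 0.15, FDR 0.0055), while in both groups that kept inducers its difference from C1T was 0.05 (95% intervals -0.25 to 0.35 for both, FDR 0.86 and 0.85).

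Egr1 was higher in C1HV than in C1T by 1.01 (SE 0.41, FDR 0.044 by edgeR), at 7.23, 5.11, 8.17 and 5.205 CPM. Its lowest C1HV libraries overlapped with the highest C1T library at 5.22 CPM, and the FDR ran up to 0.149 without replicate 1 or 2 of C1T or replicate 1 or 3 of C1HV and was also over 0.05 in DESeq2 and with no filter on low counts (up to 0.0645). Spry1 was lower in C1MDT than in C1T by 1.46 on the log2 scale (SE 0.64, FDR 0.0473), on 1, 2, 4 and 3 counts against 5, 7, 5 and 4, and the FDR was over 0.05 whichever of the 8 libraries was left out (0.0645 to 0.111). It was also over 0.05 with library size as the only scaling, in DESeq2 and with no filter on low counts (up to 0.0769). Etv5 did not pass the test in any of the 4 comparisons, with log2 fold changes from -0.06 to 0.10. Replicate 4 of C1MV, the library with the fewest counts, had 280 CPM of Etv5 against 469 to 492 CPM in the others, and without it Etv5 passed the test in C1MV vs C1T (FDR 0.0108). Spred2 did not pass the test in any of them, with log2 fold changes from -0.45 to -0.09.

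The induced groups at day 4 differed from C1T in the markers of other cell states, and these moved with the genes above. Of 8 tested endoderm markers 7 were higher in each of the 4 groups, and their summed level was 16.55 to 25.97 CPM in C1T, 395.9 to 656.2 in C1MV, 538.8 to 589.6 in C1HV, and 729.3 to 860.9 and 704.6 to 884.2 in C1MDT and C1HDT. In C1T the defining endoderm genes Sox7 and Sox17 had at most 1 and 2 counts in a library. The 11 naive markers summed to 1307 to 1724 CPM in C1T, 2927 to 3400 in C1MV and 2811 to 2920 in C1HV, but 1546 to 1809 in C1MDT and 1511 to 1746 in C1HDT. Of these markers 9 and 8 were higher and 1 and 1 lower after withdrawal, and 1 and 2 were higher and 5 and 4 lower with inducers kept. The 7 early epiblast markers summed to 1832 to 2187 CPM in C1T, 753.9 to 908.5 in the groups after withdrawal and 1235 to 1384 in those that kept inducers. In the order C1MV, C1HV, C1MDT, C1HDT, 6, 6, 3 and 4 of these were lower and 0 higher. Of the 6 general pluripotency genes 3, 3, 4 and 4 were lower and 0, 1, 0 and 0 higher in the same order, and of the 6 tested neural genes 2, 1, 1 and 1 were lower and 1, 1, 2 and 3 higher. Of the 5 streak and mesoderm genes 0, 0, 1 and 1 were higher and 0 lower, and of the 4 fibroblast genes 1, 2, 0 and 1 were higher and 0 lower. The part of these states in the levels of the ERK-responsive genes was not tested.

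Of the 20 feedback genes of the wider list 1, 1, 3 and 4 rose and 6, 5, 6 and 5 fell against C1T in the order C1MV, C1HV, C1MDT, C1HDT. Ccnd1 was lower in all 4, with log2 fold changes of -0.97, -0.89, -0.69 and -0.75, and so was Rgs2, with -0.89, -1.12, -0.89 and -0.96. Of the 15 FGF genes 4, 5, 6 and 5 rose and 3, 2, 2 and 4 fell in the same order. Fgf4 was lower in all 4, with -0.51, -0.74, -0.37 and -0.41. Of the 28 cascade genes 4, 6, 5 and 5 rose and 6, 4, 4 and 3 fell, of the 20 immediate early genes 4, 5, 4 and 4 rose and 3, 3, 2 and 4 fell, and of the 11 dissociation genes 3, 3, 3 and 4 rose and 1, 4, 4 and 4 fell.

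The fourth comparison asked what keeping dox and TMP through differentiation changed. In C1MDT vs C1MV 2 of the 10 genes were higher (Spry2 and Etv4) and 2 lower (Dusp4 and Spry1), against 6.64% and 5.95% of all tested genes. In C1HDT vs C1HV 2 were higher (Spry2 and Etv4) and 1 lower (Dusp4), against 9.10% and 6.88%. The median over the 10 genes was 0.16 and 0.22, against -0.02 and 0 over all genes. These comparisons share no library.

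Etv4 was higher with the inducers kept, by 1.02 (log2, SE 0.13, FDR 1.1e-08) in the middle fraction and 1.27 (SE 0.14, FDR 1.3e-10) in the high fraction in edgeR. The highest library after withdrawal was at 74.1 CPM and the lowest with inducers at 97.0 CPM. Spry2 was higher by 0.43 (SE 0.08, FDR 3.05e-05) and 0.32 (SE 0.09, FDR 0.0036), and its ranges of 142 to 176 CPM and 183 to 227 CPM also lay apart. Dusp4 was lower by 0.44 (SE 0.14, FDR 0.025) and 0.47 (SE 0.15, FDR 0.017) on the log2 scale, with the first call lost without replicate 2 or 4 of C1MV or replicate 1, 2 or 3 of C1MDT (FDR up to 0.259) and the second without replicate 2 or 4 of C1HV or replicate 3 of C1HDT (up to 0.0593). Spry1 fell by 1.81 in the middle fraction (SE 0.61, FDR 0.017), on 1, 2, 4 and 3 counts against 10, 6, 5 and 9, and the FDR was up to 0.0978 without replicate 1 or 4 of C1MV. DESeq2 gave Spry1 no adjusted p in this comparison.

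Dusp6 differed by 0.31 (95% interval 0.05 to 0.57, FDR 0.11) and 0.36 (0.09 to 0.63, FDR 0.055), and neither passed the threshold after adjustment. Spry4, Spred1, Spred2, Etv5 and Egr1 passed in neither. The fractions themselves were alike at day 4 for calls: 0 of the 10 genes passed the test in C1HV vs C1MV, where 0.00654% of all genes did, and 0 in C1HDT vs C1MDT, where 0.00% did. DESeq2 also called 0 in both, and at an unadjusted p under 0.05 there was 1 gene in each, Etv4 and Spry1. Etv4 differed by -0.31 (log2, SE 0.15) in C1HV vs C1MV, and Spry1, on few counts, by 1.40 (SE 0.62) in C1HDT vs C1MDT. The 95% interval of the Dusp6 difference between the fractions was -0.36 to 0.20 after withdrawal and -0.27 to 0.23 with inducers kept.

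Of the wider lists, 3 feedback genes rose and 1 fell in C1MDT vs C1MV and 3 rose and 0 fell in C1HDT vs C1HV. Of the FGF genes 3 and 2 rose and 0 fell in either, of the cascade genes 6 and 5 rose and 0 and 1 fell, of the immediate early genes 3 and 3 rose and 2 and 5 fell, and of the dissociation genes 1 and 3 rose and 2 and 2 fell. Of the naive markers 0 rose in either and 9 and 10 fell, and of the general pluripotency genes 1 and 2 rose and 1 and 1 fell. Of the 7 early epiblast markers 5 and 4 rose and 0 fell in either, of the 8 endoderm markers 3 and 3 rose and 0 fell in either, and of the 6 tested neural genes 2 and 2 rose and 1 and 0 fell. Of the streak and mesoderm genes 1 and 0 rose and 0 fell in either, and of the fibroblast genes 0 rose in either and 0 and 1 fell. The part of these states in the levels of Etv4, Spry2 and Dusp4 was not tested.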

How the data were processed

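RNA from 32 samples was sequenced with the QuantSeq 3′ kit. The deposited values are raw counts per gene, which the authors made with htseq-count after read trimming (bbduk) and alignment with STAR, and the submitters' processing notes give mm10 as the build. Whether counting used the strand is not given in the sources used here. The rows of reads on no gene, ambiguous or not unique were left out of library sizes.

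Groups and replicate numbers were taken from the labels, which call the replicates biological. Counts were scaled with TMM factors (0.946 to 1.05), and genes reaching 1 CPM or more in 4 or more libraries were fitted over all 8 groups. The test was quasi-likelihood in edgeR 4.0.16 (limma 3.58.1, R 4.3.3), with Benjamini-Hochberg adjustment over 15280 genes and a threshold of 0.05. The script was tested on simulated data. The SE came from the fitted dispersion and gave the 95% intervals. A group with at most 3 counts in each library was compared by the ratio of summed counts or, at 0, by a bound against 3 counts per library. Alternatives were DESeq2 1.42.0 and RLE scaling, library size only, other filters, only the groups compared, each library left out and a replicate block.

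The named genes are the 10 genes and, of each wider list, up to 3 of the genes that rose most and up to 3 that fell most in C1T vs C1 and passed the threshold, and for each of the 10 genes the 2 most correlated genes, not all of which are reported here. Etv1 and any other gene named for another comparison were chosen after their values were seen. The 10 genes and all lists were chosen with earlier results of these data known. Gene positions are from GENCODE for GRCm38 and promoters from RefSeq.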

Additional observations from a re-analysis of the deposited data

Results flagged for a closer look

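In 5 of the 80 sets of 4 libraries (10 genes in 8 groups) 1 library lay far from the other 3, and chance gives about 1 in 20. Replicate 1 of C1MV was low for Dusp6, at 34.7 CPM against 42.8 to 43.4 CPM, and for Spred1, at 38.7 CPM against 49.2 to 50.2 CPM. Replicate 4 of C1MV, which had the fewest counts of all libraries, was low for Etv5, at 280 CPM against 469 to 492 CPM. Replicate 2 of C1H was high for Dusp6, at 4.53 CPM against 3.66 to 3.78 CPM, which is 13 counts. Spry4 in C1M was flagged on 1 count, at 0.326 CPM in replicate 3 against 0 in the others.

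The change from day 0 to day 4 differed between an induced fraction and the control cells in 11 of 40 interaction tests by edgeR. Of all tested genes 22.5% passed the interaction of C1MV, 24.4% that of C1MDT, 21.9% that of C1HV and 25.2% that of C1HDT, so the share among the 10 genes was near the background. Spry2 rose by less in all 4, with differences in log2 fold change from C1T vs C1 of -1.72 in both C1MV and C1HV, -1.28 in C1MDT and -1.40 in C1HDT. The induced fractions began from a higher Spry2 level at day 0 than C1 and reached a lower mean at day 4 than C1T. Etv4 rose by more where inducers were kept, by 1.61 in C1MDT and 1.68 in C1HDT, from a lower level at day 0 than in C1 and to a lower level at day 4 than in C1T. Etv5 rose by more in C1MV (0.54), C1MDT (0.50) and C1HDT (0.51), and each of these was lost under several alternatives. Dusp4 in C1MDT differed by -1.42, which was lost without replicate 2 or 4 of C1 or replicate 3 of C1M (FDR up to 0.269). Spry1 in C1MDT differed by -2.69 on at most 16 counts per library. All 11 rest on the same C1 and C1T libraries.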

How the results depend on the processing

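Of 81 log2 fold changes of the 10 genes that passed the threshold, 1278 values under alternatives were computed. The call was kept in 1196 and lost in 82, and 0 were reversed. Of 119 that did not pass, 15 values passed under an alternative. In C1MDT vs C1T 5 genes in place of 4 passed with RLE scaling and also with only the groups compared in the fit. With library size as the only scaling 2 genes in place of 4 passed in C1MDT vs C1T. That scaling moved the median of all genes to 0.12 in C1M vs C1, 0.12 in C1H vs C1, -0.10 in C1MDT vs C1M and -0.14 in C1HDT vs C1H, and RLE moved it to -0.10 in C1HDT vs C1H. A filter of at least 1 CPM in all 32 libraries kept 7 of the 10 genes and left out Dusp4, Spry1 and Spry4. With these untested, 5 in place of 8 passed in C1MDT vs C1M and 2 in place of 4 in C1MDT vs C1MV. In the interaction of C1MDT 3 in place of 5 passed. With only the groups compared in the fit, 1 in place of 2 passed in the interaction of C1MV and 2 in place of 1 in that of C1HV, and the cause was not tested.

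With 1 library left out, the number of genes that passed was 6 to 6 in C1T vs C1, 7 to 7 in C1MV vs C1M, 7 to 8 in C1MDT vs C1M, 7 to 7 in C1HV vs C1H and in C1HDT vs C1H, 4 to 5 in C1M vs C1, 2 to 3 in C1H vs C1 and 0 to 0 in C1H vs C1M. It was 5 to 7 in C1MV vs C1T, 2 to 3 in C1MDT vs C1T, 6 to 7 in C1HV vs C1T, 3 to 4 in C1HDT vs C1T, 2 to 4 in C1MDT vs C1MV, 2 to 3 in C1HDT vs C1HV and 0 to 0 in C1HV vs C1MV and C1HDT vs C1MDT. For the interactions it was 1 to 3 in C1MV, 3 to 5 in C1MDT, 1 to 2 in C1HV and 2 to 3 in C1HDT.

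Samples with the same replicate number did not deviate together (mean r -0.0016, against 0.00054 for other numbers). How the replicates were made cannot be read from this. According to a caption of the paper, the 4 samples averaged for each group came from a single experiment, so the spread used by the tests may be that within an experiment. A replicate block gave the same number of genes in each comparison except the interactions of C1MDT, with 4, and C1HDT, with 2, where Etv5 no longer passed. Depth limits Spry1, Egr1 and, at day 0, Spry4 and Dusp4, which had few counts in each library.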

Other observations

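The genes whose log2 CPM followed each of the 10 genes most closely over the 32 libraries were listed by Pearson r, which mostly holds the step between the groups. The values are for a prior count of 2. Dusp6 was closest to Ina, an intermediate filament gene of neurons (r = 0.99), and to Lef1, a DNA-binding partner of β-catenin (0.99). With a prior count of 0.5 Dnmt3b (0.985) took the place of Lef1 for Dusp6. Spry4 was also close to Lef1 (0.96). Dusp4 was closest to Lrp2 (0.98) and Slc38a2 (0.98), and Spry2 to Meg3 (0.97) and Sox4 (0.96). Etv4 was closest to Rarg, a retinoic acid receptor gene (0.97), and Slc16a3 (0.97), which changed places with a prior count of 0.5, Spred1 to Lmo4 (0.96) and Sall2 (0.96), and Etv5 to Aldoa (0.88) and Zfp459 (0.87). The genes that did not rise had weaker partners: Spry1 had Slc35a5 (0.68), Spred2 had Atg16l1 (0.59) and Egr1 had Plpp7 (0.64).

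Etv1, the remaining gene of the PEA3 group, was named after its values were seen. It was lower than in C1T in all 4 induced groups at day 4, with log2 fold changes of -1.01 and -1.20 after withdrawal (C1MV and C1HV) and of -0.71 and -0.70 with inducers kept (C1MDT and C1HDT), as Etv4 was lower, while Etv5 passed the test in none of these comparisons.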
